A study of Mus musculus with 8 samples.

Results

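Genes that mark reactive, phagocytic microglia were followed in whole hippocampus of mice that lack Ctcf in excitatory forebrain neurons. The set holds 40 mouse genes, given by name: 13 surface receptors and adaptors, 5 genes of lipid handling, 14 lysosomal and endosomal genes, and 8 secreted factors and others. Array probes whose gene name in the scanner files equals one of these names were taken, which gave 51 probes for 39 of the 40 genes, out of 30139 gene names with a probe in all. No probe carries the name Bcl2a1a, which encodes an anti-apoptotic protein of myeloid cells, and it is not analysed here. Of the 39, 32 were measured, that is, had a probe that cleared background on all arrays of 1 genotype or both. All 32 were well above background on all 8 arrays. The other 7 (Itgax, Msr1, Cd84, Cd180, Cst7, Gpnmb and Cybb) were too dim for the test and are described separately.

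The CKO mice were C57BL/6 with loxP sites on both Ctcf alleles and the Camk2a-Cre transgene, and the WT mice were C57BL/6 with the same loxP alleles and no Cre. The Camk2a promoter drives Cre in excitatory neurons of the forebrain and not in microglia, so the microglia of both genotypes carry Ctcf alleles that this Cre is not known to delete. Only CKO mice carried Cre, so an effect of Cre alone cannot be told apart from one of Ctcf loss. Each sample was total RNA from pooled hippocampi of 3 mice that had been through behavioural tests, with 3 pools per genotype. In each genotype, pool 1 combined 2 females with 1 male of 19 to 23 weeks. Pool 2 came from 3 females of 18 to 19 weeks, and pool 3 from 3 males of 15 to 17 weeks. Pool 1 of each genotype was run on 2 arrays, which were averaged, so n is 3 pools per genotype. Sex makeup and age go with the pool number and cannot be told apart from each other. Pool 2 was run on slide 1 alone, pool 3 on slide 2 alone, and pool 1 on both.

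Microglia are the resident macrophages of the brain. Around dying cells, myelin debris or protein deposits they take on a phagocytic state, best described in mouse, in which homeostatic genes fall and a set of receptor, lipid and lysosomal genes rises. TREM2, a receptor for lipids and lipoproteins, signals through the adaptor TYROBP and is needed for the full form of this state in mouse. Among the genes that mark it are Apoe, Lpl, Cst7, Clec7a, Itgax, Spp1 and the cathepsins that degrade engulfed material in lysosomes.

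Signals are given as log2 of the processed intensity minus the 75th percentile of the array, so 0 is the level of that percentile on the array, and a difference of 1 between genotypes is a doubling. Array 75th percentiles ran from 2112 to 5104 intensity units, and 59.2% to 66.0% of spots were well above background. The dimmest array was the second array of WT pool 1, where probe values of the repeat arrays of the pool correlated at r = 0.953; those of CKO pool 1 did at r = 0.989. Ctcf stood at 0.18, 0.16 and 0.05 in CKO pools 1, 2 and 3, against 0.83, 1.12 and 1.04 in the WT pools, a difference of -0.87 with no overlap. The sources used here do not say whether its probe lies in the deleted part. Neuron markers, excitatory and general (Camk2a, Slc17a7, Neurod6, Neurod2, Nrgn, Rbfox3, Snap25 and Syt1), were all measured (8 of 8), as the tissue label requires. Homeostatic microglia markers were too (16 of 16).

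In CKO pools 25 of the 32 measured genes were higher and 7 lower. Over all 18311 genes tested, 49.4% were higher. The median difference of the 32 was 0.35, against -0.0031 over all genes. None of the 32 passed the test over all genes, which was limma with Benjamini-Hochberg adjustment at an adjusted p of 0.05 (0 of 32, where 0.0437% of all genes passed). At an unadjusted p under 0.05, limma called 6 of them, all higher, where 5.47% of all genes were called and 2.91% called higher. With the pool number as a block, 1 of the 32, Cd83, passed, where 0.535% of all genes passed, and 15 had an unadjusted p under 0.05, where the share of all genes was 8.33% (4.57% higher in CKO). At the brightest probe of a gene, every CKO pool lay above every WT pool in 7 genes (Cd83, Gpr84, Clec7a, Cd52, Grn, Ctsc and Ctsd). This was the case for 5.71% of all genes. In 0 of the 32 every CKO pool lay below every WT pool, a direction not counted over all genes. The RNA came from whole tissue, so more cells of a type and more RNA per cell cannot be told apart.

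**Figure D1:**
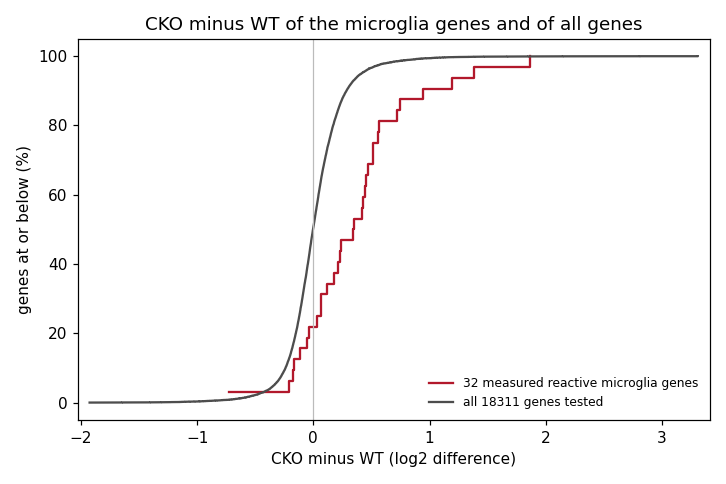
Cumulative share (%, y axis) of genes at or below each CKO minus WT difference (log2, x axis) for the 32 measured reactive microglia genes (red) and all 18311 genes tested (grey). The red curve lies to the right of the grey one over most of its course, with medians of 0.35 and -0.0031.

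The surface receptors and adaptors stood highest. All 9 measured ones were higher in CKO pools, with differences of 0.06 to 1.87 and a median of 0.52. Their mean level relative to the WT mean was 0.63, 1.36 and 0.33 in CKO pools 1, 2 and 3, against 0.08, -0.03 and -0.05 in the WT pools. No CKO pool overlapped the WT pools in this mean.

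Cd83 encodes an immunoglobulin-superfamily membrane protein of activated antigen-presenting cells and B cells that is also expressed by microglia. Its signal was 1.30, 1.32 and 1.29 in CKO pools 1, 2 and 3, against 0.60, 0.06 and 0.41 in the WT pools. The CKO pools lay within 0.03 of one another and all above the WT pools, whose SD was 0.27. The difference was 0.94 (SE 0.15, 1.92-fold; limma adjusted p = 0.144, and 0.0277 with the pool number as a block). It passed without a block when the second array of WT pool 1 was left out (adjusted p = 0.0221) or WT pool 1 as a whole (0.0284), and with any single other pool left out the limma adjusted p ran from 0.154 to 0.696. Over all 27 alternatives the difference stayed positive, and its adjusted p ran from 0.00166 (array weights) to 1.00 (within slide 2). Array by array the 4 CKO values were 1.25 and 1.34 (pool 1), 1.32 (pool 2) and 1.29 (pool 3), and the 4 WT values were 0.52 and 0.67 (pool 1), 0.06 (pool 2) and 0.41 (pool 3).

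Clec7a encodes Dectin-1, a receptor for fungal beta-glucans that is a common marker of reactive microglia in mouse. It stood at -1.84, -0.22 and -2.85 in CKO pools 1, 2 and 3, against -3.55, -3.57 and -3.39 in the WT pools. The WT pools lay close together (SD 0.09) and the CKO pools were spread widely (SD 1.32), with pool 2 highest. The difference was 1.87 (SE 0.55, 3.65-fold), the largest of the 32, and did not pass (adjusted p = 0.581 by limma, 0.0841 with the block). Without CKO pool 2 it was 1.16.

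Gpr84 encodes a receptor for medium-chain fatty acids that myeloid cells raise on inflammatory stimulation. Its signal was -1.90, -0.81 and -2.01 in CKO pools 1, 2 and 3, against -2.45, -2.75 and -3.10 in the WT pools. The genotypes did not overlap, and CKO pool 2 was highest. The difference was 1.20 (SE 0.33, 2.29-fold), with a limma adjusted p of 0.526, or 0.0762 with the block. Cd52, a small GPI-anchored glycoprotein of leukocytes, stood at -0.92, 0.40 and -1.76 in CKO pools, against -2.00, -1.96 and -2.47 in the WT pools, again without overlap. Its difference was 1.38 (SE 0.47, 2.61-fold; limma adjusted p = 0.748, 0.0619 with the block), and 0.80 without CKO pool 2.

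Of the TREM2 complex, Tyrobp differed by the median of the measured receptors and adaptors, 0.52, and Trem2 by less. Tyrobp, the adaptor that carries the signal of TREM2 and other receptors, stood at 2.11, 2.56 and 2.02 in CKO pools 1, 2 and 3, against 2.19, 1.37 and 1.59 in the WT pools. WT pool 1 lay among the CKO pools, and the difference of 0.52 (SE 0.23) did not pass (limma adjusted p = 0.919). That overlap came from the second array of WT pool 1, the dimmest array. On the first and second arrays WT pool 1 read 1.96 and 2.41, and CKO pool 1 read 1.97 and 2.25. The Tyrobp probe on the array is shown because this gene encodes the adaptor of TREM2 and some other receptors.
Tyrobp probe: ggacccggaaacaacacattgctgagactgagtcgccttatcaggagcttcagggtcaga
Trem2 stood at 1.67, 2.48 and 1.47 in CKO pools, against 1.71, 1.53 and 1.73 in the WT pools. Only CKO pool 2 lay above the WT range, while CKO pool 1 lay within that range and CKO pool 3 below it. The difference was 0.22 (SE 0.24; limma adjusted p = 0.999), and it turned to -0.09 without CKO pool 2. The remaining measured receptors were the T-cell costimulator Cd86 (0.42), the tetraspanin Cd9 (0.34) and Axl (0.06), a receptor tyrosine kinase that takes up apoptotic cells through the bridging protein GAS6; the CKO and WT pools overlapped in each.

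**Figure D2:**
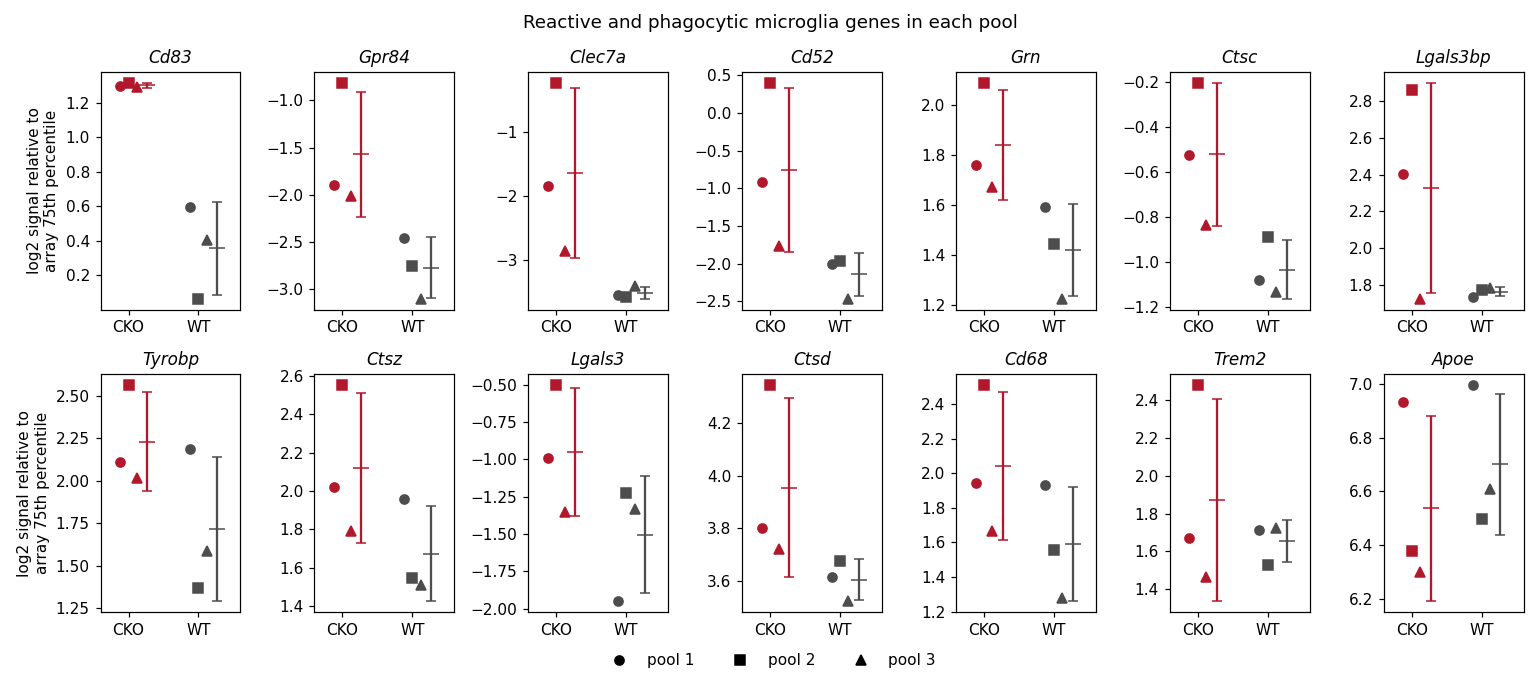
Log2 signal relative to the array 75th percentile (y axis, own scale per gene) in the 3 CKO pools (red, left) and 3 WT pools (grey, right) for 14 genes, with bars for the mean and SD. In Cd83, Gpr84, Clec7a, Cd52, Grn, Ctsc and Ctsd the genotypes do not overlap at the brightest probe, which is the one shown. In 13 of the 14 genes, Apoe being the exception, CKO pool 2 (square) is the highest of the 6 pools.

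Lysosomal and endosomal genes differed by less. Of 12 measured, 10 were higher in CKO pools, with differences from -0.11 (Ctsl) to 0.75 (Lyz2) and a median of 0.29. Their mean relative to the WT mean was 0.27, 0.63 and -0.04 in CKO pools 1, 2 and 3, against 0.03, 0.02 and -0.05 in the WT pools, so that CKO pool 3 lay within the WT range.

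Grn encodes progranulin, a secreted glycoprotein that is also needed for lysosomal function. It stood at 1.76, 2.09 and 1.67 in CKO pools 1, 2 and 3, against 1.59, 1.44 and 1.23 in the WT pools, with no overlap. The difference was 0.42 (SE 0.16; limma adjusted p = 0.813). Ctsc, the dipeptidyl peptidase that activates granule serine proteases, stood at -0.53, -0.20 and -0.84 in CKO pools, against -1.08, -0.89 and -1.13 in the WT pools. These did not overlap either, with a difference of 0.51 (SE 0.19; limma adjusted p = 0.813).

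Ctsd, a main aspartic protease of lysosomes, stood at 3.80, 4.34 and 3.72 in CKO pools 1, 2 and 3, against 3.61, 3.68 and 3.52 in the WT pools. CKO pool 3 exceeded the highest WT pool by little, and the difference was 0.35 (SE 0.17, limma adjusted p = 0.980). The other Ctsd probe gave 0.56, with 2.84, 3.26 and 2.53 in CKO pools against 2.09, 2.74 and 2.12 in the WT pools. At that probe the genotypes overlapped, with CKO pool 3 below WT pool 2. Ctsz, a carboxypeptidase, stood at 2.02, 2.55 and 1.79 in CKO pools, against 1.96, 1.55 and 1.51 in the WT pools. CKO pool 3 lay below WT pool 1 there, and the difference was 0.45 (limma adjusted p = 0.969). On the first and second arrays Ctsz read 1.70 and 2.22 in WT pool 1, and 1.91 and 2.13 in CKO pool 1.

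Cd68, the lysosomal glycoprotein used to stain phagocytic microglia, stood at 1.95, 2.51 and 1.67 in CKO pools 1, 2 and 3, against 1.94, 1.56 and 1.28 in the WT pools. In each pool number the CKO pool was the higher one, in pool 1 by little, and the genotypes overlapped. The difference was 0.45 (SE 0.24, limma adjusted p = 0.986). The dimmer Cd68 probe gave 0.73, with -2.47, -1.69 and -2.80 in CKO pools against -2.96, -2.83 and -3.36 in the WT pools. At that probe the genotypes did not overlap, by a narrow margin. Lyz2, lysozyme of macrophages, had the largest difference of the lysosomal genes (0.75, SE 0.44; limma adjusted p = 0.999, 0.281 with the block; 0.28 without CKO pool 2), with -0.97, -0.09 and -2.01 in CKO pools against -1.88, -1.35 and -2.08 in the WT pools. Its value in CKO pool 3 lay among the WT pools, and RNA of the closely similar paralog Lyz1 may add to the signal of its probe, which is shown for that reason.
Lyz2 probe: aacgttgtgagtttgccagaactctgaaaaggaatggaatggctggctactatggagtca
The cysteine proteases Ctss (0.24), Ctsh (0.23) and Ctsb (0.12), the tetraspanin Cd63 (0.07), the lysosomal membrane protein Lamp1 (-0.04) and the protease Ctsl (-0.11) differed by less than 0.25, and none passed.

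Lipid handling genes had no shared direction. Of 5 measured, 2 were higher (the cholesterol 25-hydroxylase Ch25h, 0.72, and the lysosomal cholesterol carrier Npc2, 0.18) and 3 lower, with a median of -0.05. Apoe, the main lipoprotein of the brain, made largely by astrocytes and raised in reactive microglia, stood at 6.93, 6.38 and 6.30 in CKO pools 1, 2 and 3, against 6.99, 6.50 and 6.61 in the WT pools. In each pool number the CKO pool was the lower one, with overlap across pools, and the difference was -0.16 (SE 0.22; limma adjusted p = 0.999). Lpl, the lipase that releases fatty acids from lipoproteins, differed by -0.21 at its brighter probe and by 0.17 at the other. The fatty acid carrier Fabp5 differed by -0.05.

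Ch25h showed the same order of pools in both genotypes. It stood at -1.41, -1.85 and -3.31 in CKO pools 1, 2 and 3, against -2.35, -2.51 and -3.85 in the WT pools. The CKO pool was higher in each pool number, by 0.55 to 0.95, while the genotypes overlapped across pools. The limma adjusted p was 0.999, and 0.200 with the block.

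Among the secreted factors and others, 4 of 6 were higher, with a median of 0.25. Lgals3bp, a secreted ligand of galectin-3 that interferon also raises, stood at 2.40, 2.86 and 1.73 in CKO pools 1, 2 and 3, against 1.74, 1.77 and 1.78 in the WT pools. CKO pools 1 and 2 lay above the narrow WT range and pool 3 just below it, with a difference of 0.56 (SE 0.25, limma adjusted p = 0.918). The other probe gave 0.75, with 2.04, 2.43 and 1.38 in CKO pools against 1.18, 1.44 and 0.97 in the WT pools. There the WT range was wider, and CKO pool 3 lay within it. Lgals3, galectin-3 itself, a marker of phagocytic microglia, stood at -0.99, -0.50 and -1.35 in CKO pools, against -1.95, -1.22 and -1.33 in the WT pools. The genotypes overlapped through CKO pool 3, and the difference was 0.55 (SE 0.27; limma adjusted p = 0.976).

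Mpeg1, which encodes the pore-forming perforin-2 of macrophages, differed by 0.47, and the growth factor Igf1 by 0.03, with probes that differed in sign (-0.15 to 0.30 over the other 4). Fth1, the iron-storing ferritin heavy chain, differed by -0.18. Spp1, osteopontin, rested on a single low pool: it stood at 0.37, -2.77 and 0.16 in CKO pools 1, 2 and 3, against -0.20, -0.08 and 0.21 in the WT pools. Its difference was -0.72 (SE 0.72), and 0.29 without CKO pool 2, the pool in which most other genes of the set were highest.

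The differences were uneven over the pool numbers. In pool 1, 23 of the 32 genes were higher in the CKO pool, in pool 2, 29, and in pool 3, 15, where 45.6%, 57.9% and 46.3% of all genes were. The median differences were 0.19, 0.66 and -0.02, against -0.04, 0.05 and -0.03 over all genes. CKO pool 2 held the highest of the 6 values in 24 of the 32 genes (11.3% of all genes), and the difference was largest in pool 2 in 23 of them (41.9% of all genes). In 13 genes the CKO pool was higher in every pool number (14.1% of all genes), and in 2, Apoe and Fth1, lower in every one. The share of all genes that were lower in every pool number was not counted. Without CKO pool 2 the median of the 32 was 0.19, and without CKO pool 3 it was 0.48. Within slide 1 (the first arrays of pool 1 and pool 2) the median was 0.46, and within slide 2 (the second arrays of pool 1 and pool 3) it was 0.15. The first arrays of pool 1 alone gave 0.23 with 28 genes higher and the second arrays 0.19 with 22 higher. With the slide as a block the median over the pools was 0.35. The part of sex or age in the order of the pools was not tested.

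**Figure D3:**
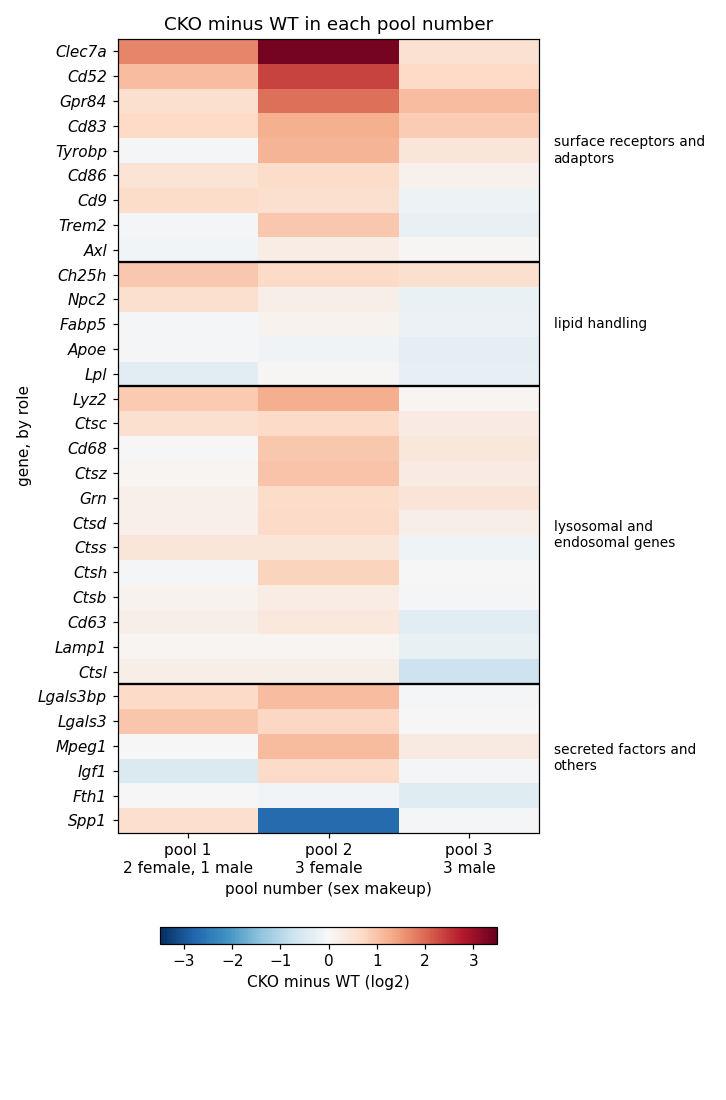
CKO minus WT difference (log2, colour scale) in pool numbers 1, 2 and 3 (columns, with sex makeup) for the 32 measured genes (rows), grouped by role and ordered by their mean difference. Red marks higher in CKO; the pool 2 column is red in 29 rows, deepest for Clec7a, and blue for Spp1.

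The 7 dim genes include markers of the reactive state. Cst7, which encodes cystatin F, an inhibitor of lysosomal cysteine proteases, stood at -4.44, -0.49 and -5.03 in CKO pools 1, 2 and 3, against -6.50, -7.20 and -7.18 in the WT pools. Its probe cleared background on 3 of 4 CKO arrays and 0 of 4 WT arrays. Its CKO signal was at least 3.55-fold higher, and it did not pass in the limma fit with no filter on dim probes (adjusted p = 0.497). The bound rested on CKO pool 2, and without that pool it was at least 1.33-fold. An "at least" value sets the CKO mean against, on each WT array, the higher of the lowest signal well above background and the probe's own signal.

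Itgax, the integrin CD11c, showed the same pattern at -4.23, -1.83 and -5.51 in CKO pools 1, 2 and 3, against -6.49, -5.69 and -6.48 in the WT pools. Its probe cleared background on 3 of 4 CKO arrays and 0 of 4 WT arrays, and its CKO signal was at least 2.46-fold higher (limma adjusted p = 0.763). Without CKO pool 2 the bound was at least 1.22-fold. CKO pool 3 was not well above background, so its order against the WT pools is that of background signals. The signalling receptor Cd84 (difference 0.80) and the lysosomal and melanosomal glycoprotein Gpnmb (0.42) cleared background on 3 of 4 CKO arrays and 2 of 4 WT arrays. Cybb, the catalytic subunit of the phagocyte NADPH oxidase, cleared it on 1 of 4 CKO arrays and 0 of 4 WT arrays. The scavenger receptor Msr1 and Cd180, a receptor related to the toll-like receptors, were not well above background on any array, so no fold is given. Of these 7 genes, 0 passed the limma test with no filter.

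**Figure D4:**
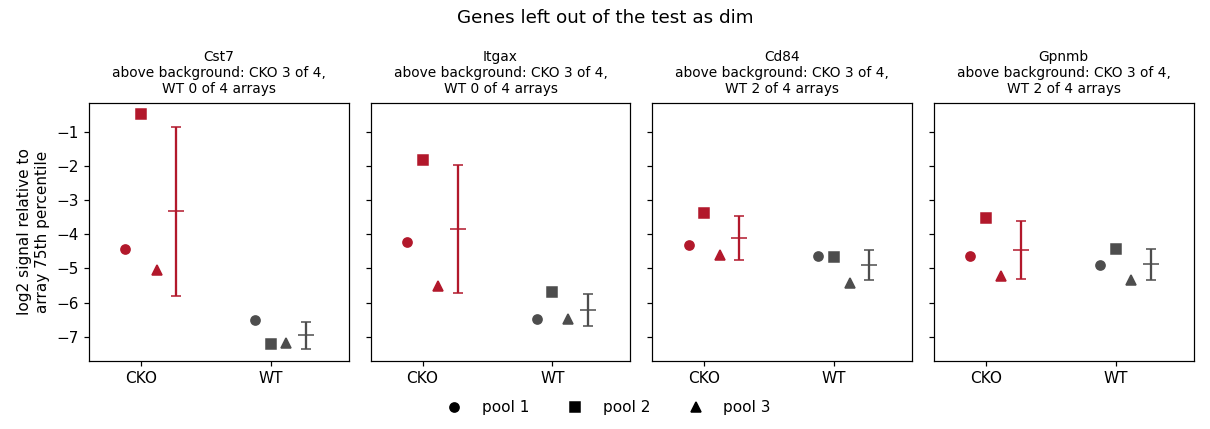
Log2 signal relative to the array 75th percentile (y axis) of Cst7, Itgax, Cd84 and Gpnmb in the 3 CKO pools (red, left) and 3 WT pools (grey, right), with the mean and SD. Cst7 and Itgax cleared background on 3 of 4 CKO arrays and on 0 of 4 WT arrays, and CKO pool 2 (square) lies highest in all 4 genes.

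Promoter sequences of Clec7a, Gpr84 and Cst7, the genes with some of the largest differences, are shown from RefSeq (GRCm38.p6), from 250 bases before to 50 after the annotated start. RefSeq windows were found for 24 of the 32 measured genes. Both strands were searched for the motif GAGGAA and the motif AGGAAGT, purine-rich letters of the kind bound by PU.1, the myeloid transcription factor encoded by Spi1. The pair can overlap in 1 stretch of letters. The motif GAGGAA lay in the windows of 12 of the 24 genes (50%) and of 31.3% of 27025 genes, and AGGAAGT in those of 5 of the 24 (20.8%) and of 10.7% of genes. A match is a description of the letters and no evidence of binding. Capitals mark the match, which is GAGGAA in Clec7a (chr6:129472730-129473029, minus strand, 1 of its 2 windows) and AGGAAGT in Gpr84 (chr15:103310389-103310688, minus strand) and Cst7 (chr2:150570165-150570464, plus strand).
Clec7a promoter: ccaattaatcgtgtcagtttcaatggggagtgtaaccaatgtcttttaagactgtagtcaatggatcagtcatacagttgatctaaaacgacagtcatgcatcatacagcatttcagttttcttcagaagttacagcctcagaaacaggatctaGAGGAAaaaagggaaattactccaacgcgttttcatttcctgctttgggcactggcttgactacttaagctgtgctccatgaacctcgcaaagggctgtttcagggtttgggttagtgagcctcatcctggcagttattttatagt
Gpr84 promoter: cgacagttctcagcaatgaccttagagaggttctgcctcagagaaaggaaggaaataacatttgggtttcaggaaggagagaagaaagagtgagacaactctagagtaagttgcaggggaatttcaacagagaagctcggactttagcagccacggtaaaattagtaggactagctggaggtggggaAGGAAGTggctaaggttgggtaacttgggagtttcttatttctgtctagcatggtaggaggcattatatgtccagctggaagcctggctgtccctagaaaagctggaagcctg
Cst7 promoter: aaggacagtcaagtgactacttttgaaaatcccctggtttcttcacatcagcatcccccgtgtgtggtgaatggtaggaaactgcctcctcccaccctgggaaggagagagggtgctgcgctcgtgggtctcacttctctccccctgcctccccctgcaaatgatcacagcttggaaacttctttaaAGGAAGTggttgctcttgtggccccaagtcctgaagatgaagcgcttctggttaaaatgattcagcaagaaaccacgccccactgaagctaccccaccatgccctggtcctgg

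Other genes of the same pathways, taken as whole lists, were set beside these. Of the genes that signal below TREM2 and related receptors, 15 of 18 passed the filter, among them Spi1 and Sh3bp2 through their CKO arrays alone. The Sh3bp2 probe cleared background on 3 of 4 WT arrays, and its difference was 0.78 (2.47, 0.13 and -0.26 in pools 1, 2 and 3). A gene that passes through CKO arrays alone is favoured by the filter to read higher in CKO. Counts of higher genes that include such a gene lean that way. With Spi1 left out and Sh3bp2 kept, 10 of 14 were higher in CKO pools, where 49.4% of all genes were. Their median was 0.23, with 0 past the threshold by limma in either direction. An unadjusted limma p under 0.05 was reached by 3 of the 14, where 5.47% of all genes reached it. The 3 were Irf8 (0.56), a transcription factor of macrophages, the adaptor Blnk (0.45) and the phosphatase Ptpn6 (0.64). The Spi1 probe cleared background on 4 of 4 CKO arrays and 0 of 4 WT arrays, which leaves a bound of at least 1.47-fold higher in CKO (limma adjusted p = 0.847). Of other phagocytic receptors and bridging genes, 21 of 22 were measured, Dock2 and Elmo1 through their CKO arrays alone. Of the 21, 13 were higher (49.4% of all genes), Dock2 and Elmo1 among them. The median of the 21 was 0.18, with 0 past the threshold by limma without a block. An unadjusted limma p under 0.05 was reached by 3 of them (5.47% of all genes).

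Cd14, the lipopolysaccharide co-receptor, was the one gene of these pathway lists to pass with the pool number as a block, where 0.535% of all genes passed. It stood at 0.50, -0.02 and -0.13 in CKO pools 1, 2 and 3, against -0.51, -1.33 and -1.03 in the WT pools. The genotypes did not overlap, and the difference was 1.07 (SE 0.25; limma adjusted p = 0.307, 0.0222 with the block). Unlike most of the 32 genes, its highest value was in CKO pool 1. The phosphatidylserine-bridging protein genes Pros1 and Mfge8 differed in opposite directions (0.52 and -0.40), and the Fc receptor gene Fcgr3 by 0.46.

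Of other lysosomal genes, 26 of 27 were measured, Galc through its CKO arrays alone. Of these, 19 were higher, Galc among them, with a median of 0.12. Among those of smallest p were the lysosomal glycosidase gene Hexa (0.30) and the lysosomal transcription factors Tfeb (0.31) and Tfe3 (0.27). Of other lipid handling genes, 17 of 18 were measured, 12 higher, with a median of 0.07. The 4 of smallest p were the cholesterol-esterifying enzyme Soat1 (0.32), the sterol hydroxylase Cyp27a1 (0.23), the fatty acid carrier Fabp3 (0.15) and the oxysterol receptor Nr1h3 (0.18). In both lists 0 genes passed by limma with or without the block. An unadjusted limma p under 0.05 was reached by 1 lysosomal and 0 lipid genes, where 5.47% of all genes reached it. Over all genes 49.4% were higher.

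Markers of cell types were read on the same pools. Homeostatic microglia markers had a median difference of 0.06 (9 of 16 higher), and their mean relative to the WT mean was 0.14, 0.38 and -0.12 in CKO pools 1, 2 and 3, against 0.19, -0.08 and -0.10 in the WT pools. CKO pool 2 was again the highest. The complement genes C1qa (0.56), C1qb (0.53) and C1qc (0.52) led this list. In the other direction 7 of the 16 were lower, P2ry12 (-0.19), Siglech (-0.18) and Sall1 (-0.09) the most. Border macrophage markers were measured for 7 of 8, without Cd163 and with Lyve1 through its CKO arrays alone. They had a median of -0.05, with means of 0.16, 0.08 and -0.17 in CKO pools against -0.01, 0.01 and 0.00 in the WT pools.

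Markers of monocytes, neutrophils and lymphocytes were measured for 9 of 16, and the defining markers Ccr2, Cd3g, Cd8a, Mmp8, Ms4a1 and Ngp were not. Their means were 0.76, -0.01 and -0.37 in CKO pools 1, 2 and 3, against 0.88, -0.32 and -0.55 in the WT pools, with the same order of pool numbers in both genotypes. Choroid plexus markers were higher in all 14 of 14 (49.4% of all genes), with a median of 0.86. Of these, Cldn2, Tmem72 and Aqp1 passed the filter through their CKO arrays alone, which favours higher CKO values. The means of the 14 were 0.94, 1.01 and 0.50 in CKO pools against -1.23, 0.47 and 0.76 in the WT pools. WT pool 1 stood apart as the lowest. By pool number the median choroid plexus differences were 2.27, 0.59 and -0.20 in pools 1, 2 and 3, beside 0.19, 0.66 and -0.02 for the 32 microglia genes. The part of choroid plexus tissue in the microglia values was not tested. CKO pool 2 was also the highest of the 6 pools for astrocyte markers, whose means were 0.05, 0.22 and -0.02 in CKO pools against -0.07, 0.05 and 0.02 in the WT pools. The same held for oligodendrocyte markers, at 0.20, 0.27 and 0.14 in CKO pools against -0.08, -0.04 and 0.12 in the WT pools. Their part in the values of the microglia genes was not tested. Medians were 0.04 for astrocyte, 0.22 for oligodendrocyte, -0.03 for neuron and 0.01 for endothelial markers. Among the astrocyte markers Gfap differed by 0.68 (limma adjusted p = 0.502, 0.0473 with the block).

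**Figure D5:**
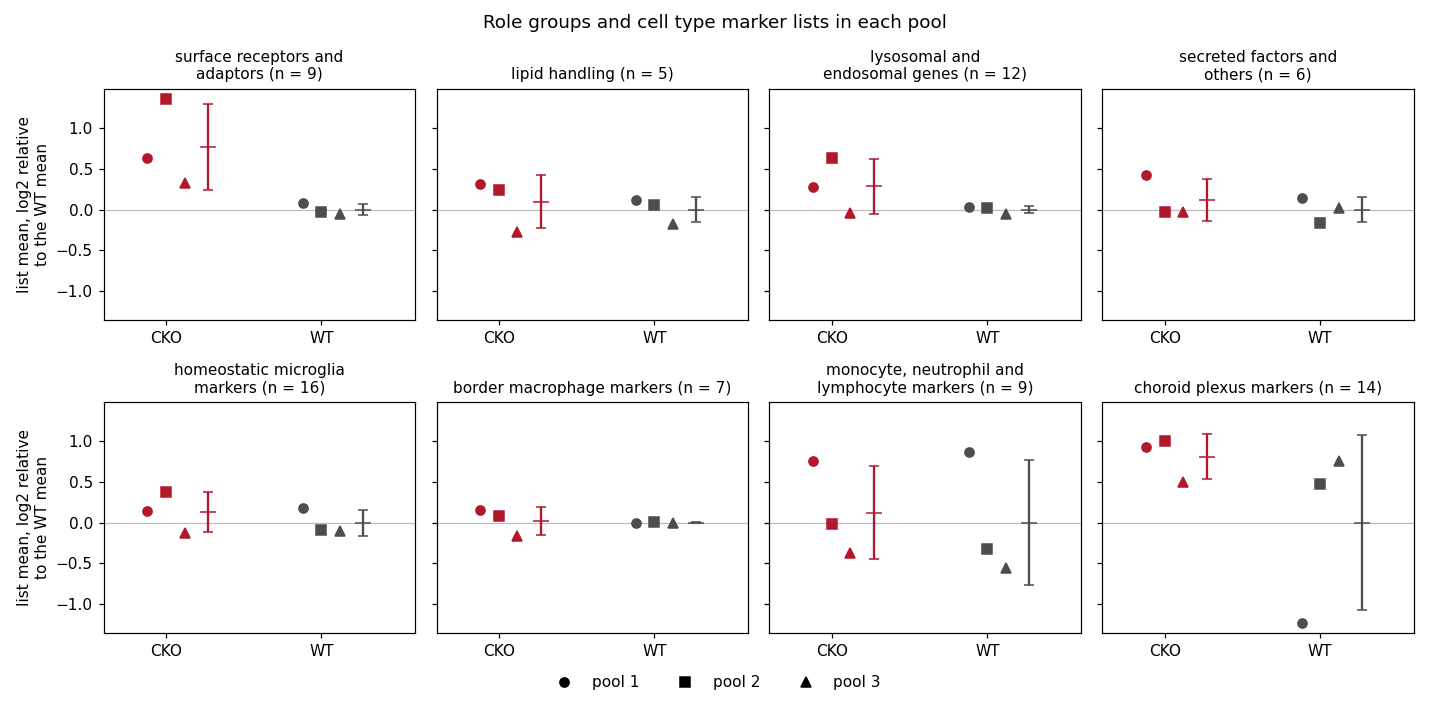
Mean log2 signal over a list's measured genes relative to the WT mean (y axis) in the 3 CKO pools (red, left) and 3 WT pools (grey, right) for the 4 role groups (upper row) and 4 cell type marker lists (lower row), with the mean and SD. The surface receptors do not overlap between genotypes, and CKO pool 2 (square) is highest for receptors, lysosomal genes, homeostatic microglia markers and choroid plexus markers.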

How the data were processed

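The submitters' processing notes name Agilent Feature Extraction 11.5, and the deposited scanner files hold its processed spot intensity. The file headers give version 11.5.1.1 and show that this signal was background-subtracted and detrended within an array, with no scaling across arrays. The authors also deposited a table of linear intensities, used as an alternative. Its array medians ran from 651.7 to 944.0, and how its arrays were scaled to one another is not stated.

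Log2 signals were scaled by subtracting each array's 75th percentile. Outlier-flagged spots were dropped, spots of a probe averaged, and probes kept when at least a share of 0.5 of their spots was well above background on all arrays of 1 genotype or both. Each of 18311 genes was read by its brightest probe among the 23601 kept; 5 measured genes of the set had further kept probes, which differed in sign in Lpl and Igf1. Of 39429 probes, 27462 were named through RefSeq accession, 3539 by symbol and 404 by synonym. Genotypes were compared with limma 3.58.1 (lmFit, eBayes with trend; R 4.3.3), as a two-sided test whose p-values were adjusted by Benjamini-Hochberg over all genes.

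Same-numbered pools share sex and age makeup per the labels. Their deviations from the genotype means correlated across genes at 0.55, 0.33 and 0.13 (highest between other numbers 0.12), all above 0.1, so the blocked fit is given beside a result where it changes the call. With the first arrays alone these were 0.09, 0.08 and 0.12. The labels do not say whether pools share litters.

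The genes, lists and alternatives were chosen with earlier results of these data known. Values in every pool are given for Trem2, Tyrobp, Apoe and Cd68 and the 12 measured genes of smallest unadjusted p, and for Ch25h, Spp1, Lyz2, Cst7, Itgax and Cd14, chosen after their values were seen. Of each other pathway list, the 4 of smallest p are named, except 1 gene that is not reported here. The build in the file headers is mm9. Promoter sequences and updated names come from RefSeq tables of GRCm38.p6, and probe sequences from the deposited scanner files.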

Additional observations from a re-analysis of the deposited data

Results flagged for a closer look

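Some probes left out of the test were well above background on CKO arrays and on 0 of 4 WT arrays. The Cst7 probe (measured log2 difference 3.64) and the Itgax probe (2.36) were so on 3 of 4 CKO arrays each, with bounds of at least 3.55-fold and at least 2.46-fold higher in CKO pools. Both bounds rested on CKO pool 2 and were at least 1.33-fold and at least 1.22-fold without it. The dimmer Cd84 probe (0.48) was so on 2 of 4 CKO arrays, and the dimmer Mpeg1 probe (0.54) and the Cybb probe (0.43) on 1 of 4 each. The Mpeg1 bound was at least 1.06-fold higher and fell under 1 without CKO pool 2. The bounds of the Cd84 and Cybb probes fell under 1, so no fold is given for them. The log2 differences given here include WT signals not well above background and are no measure of the fold.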

How the results depend on the processing

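Over 27 alternatives the 32 genes gave 864 differences, of which 802 kept their direction and side of the threshold, 29 passed where the reported fit did not, and 33 turned in sign, in 12 genes. The median of the 32 kept its sign throughout, from 0.15 (within slide 2) to 0.48 (without CKO pool 3). Genes past the threshold numbered 8 as reported, 5 with normexp background, quantile scaling, probes well above background on all arrays or the mean of a gene's probes, 3 with the authors' value table, 0 within slide 2, 123 with the first array of each pool, and 3178 with array weights. With 1 pool or the second WT array of pool 1 left out, or 1 pool number left out of both genotypes with the block, the counts ran from 0 to 462; without that WT array they were 60 higher and 47 lower. With the pool number as a block there were 98 genes, and 69 with the block and quantile scaling, 56 with the block and without probes of GAA repeats, and 70 with the block and first arrays, all added after seeing the data except the plain block. Of the 32, 1 gene, Cd83, passed with the first array of each pool and with each of these blocks, 11 with array weights, and 0 to 6 with a pool left out. The block changed no other call among the 32. Values that turned in sign were, within slide 1, Fth1 (0.062), Apoe (0.052), Ctsl (0.15) and Lamp1 (0.047); within slide 2, Ctsh (-0.15), Spp1 (0.29), Trem2 (-0.14), Cd63 (-0.062) and Igf1 (-0.58); with the value table, Fabp5 (0.014); with array weights, Cd63 (-0.085); and Igf1 with median scaling (-0.026) and slide as a block (-0.013). With pools left out the ranges were -0.045 to 0.44 for Ctsh, -1.37 to 0.29 for Spp1, -0.15 to 0.45 for Trem2, -0.042 to 0.38 for Npc2, -0.29 to 0.20 for Ctsl, -0.15 to 0.027 for Fabp5, -0.087 to 0.29 for Cd63, -0.041 to 0.16 for Axl, -0.096 to 0.070 for Lamp1 and -0.41 to 0.48 for Igf1. The cause of these changes was not tested. Dim probes left 7 genes unmeasured, with a bound above 1 for Cst7 and Itgax alone, and 3 pools per genotype limit the precision of every value.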
